A study of Mus musculus with 8 samples.

Results

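The IL-1 family and inflammasome genes described here are 10 genes picked by their symbols: the IL-1 ligand Il1b and its antagonist Il1rn; the IL-18 ligand Il18, its soluble inhibitor Il18bp and its receptor chain Il18r1; and the inflammasome genes Nlrp3, Pycard, Casp1, Casp4 and Gsdmd. All 10 were among the 32285 genes listed in 8 single-cell RNA sequencing (scRNAseq) libraries of mouse liver. The Control group held livers of 4 untreated mice (replicates 1 to 4) and the BG group livers of 4 mice (replicates 5 to 8) taken 48 h after 1 intravenous dose of 1.2 mg of the yeast β-glucan odetiglucan (Imprime PGG). The mice were female C57BL/6J of 9 weeks, and each library came from 1 mouse and held its CD45+ cells together with cells of the flow-through that a density gradient recovered. The question was which of these genes changed with BG, and in which liver cells.

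IL-1β and IL-18 are made as inactive precursors. An inflammasome is a protein platform that assembles around a sensor such as NLRP3, joins it through the adaptor ASC (Pycard) to caspase-1, and lets caspase-1 cut both cytokines and gasdermin D, whose fragment forms pores in the cell membrane. IL-1 receptor antagonist blocks the IL-1 receptor, whereas IL-18 binding protein captures IL-18 before it reaches its receptor on T cells and NK cells. In the liver, resident macrophages (Kupffer cells, KCs), monocytes and neutrophils are known sources of IL-1, and cutting, assembly and release are protein events that transcript counts do not show.

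Each library held 39612380 to 46211839 UMIs in Control and 44184117 to 60654583 in BG, where a UMI (unique molecular identifier) counts 1 captured RNA molecule. Cells with 200 to 2500 detected genes and at most 30% mitochondrial UMIs numbered 6222 to 7790 per Control mouse and 4330 to 5780 per BG mouse, 48465 in all. BG replicate 5 stood apart, because 66.6% of the UMIs over all its barcodes were mitochondrial. Pairs of libraries shared 32 to 144 barcodes, at most 0.893% of the smaller library. Cells were assigned to classes by marker genes, none of which is among the 10. The classes used here included 508 KCs, 696 monocytes and monocyte-derived macrophages (MDMs), 191 neutrophils, 309 type 1 and 90 type 2 conventional dendritic cells (cDC1, cDC2), 1328 plasmacytoid dendritic cells (pDCs), 8718 B cells, 19142 T cells and 2262 NK cells and type 1 innate lymphoid cells (NK/ILC1). KC markers such as Clec4f and Vsig4 made up 1.61% to 2.41% of the UMIs of Control KCs and 2.12% to 2.53% of those of BG KCs. The 3094 cells with markers of 2 lineages were left out. The KCs were few in some mice, with 13, 36, 111 and 64 cells in Control replicates 1 to 4 and 75, 43, 95 and 71 in BG replicates 5 to 8.

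The 10 genes were spread over the classes in distinct patterns. Levels are given as CPM (the UMIs of a gene relative to all UMIs of the class, scaled within the class), as mean ± SD over 8 mice unless stated, and a level of 1 gene is compared between classes only. Neighbouring classes in the order of a gene were compared by an exact two-sided paired permutation test on log2(CPM + 1), adjusted over the 11 pairs of that gene by the Benjamini-Hochberg method. With 8 mice the smallest p this test can give is 0.00781, so a pair that alone reaches it has an adjusted p of 0.0859 and cannot pass a threshold of 0.05.

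Neutrophils had the highest levels of Il1b, Il1rn and Nlrp3. Il1b stood at 5029 ± 831 CPM in neutrophils, at 298 ± 327 in KCs and at 103 ± 42.6 in monocytes and MDMs. All 8 mice had more Il1b in neutrophils than in KCs (exact paired permutation test, adjusted p = 0.0859), and 7 of 8 had more in KCs than in monocytes and MDMs (adjusted p = 0.115). By group, the means in KCs and in monocytes and MDMs were 497 and 117 CPM in Control and 99.1 and 88.2 CPM in BG. Il1rn, the antagonist, was also highest in neutrophils (372 ± 200 CPM), above monocytes and MDMs (38.1 ± 19.5) in 8 of 8 mice (exact paired permutation test, adjusted p = 0.0859). Nlrp3, the sensor, stood at 646 ± 195 CPM in neutrophils and at 82.9 CPM in cDC2, the class next in order (7 of 7 mice with enough cDC2, exact paired permutation test, adjusted p = 0.0573). The order of classes follows the mean of log2(CPM + 1). By it KCs came after cDC2, although their mean CPM of Nlrp3 was higher, at 89.2 ± 93.3. The neutrophil levels therefore lay above the next class in every mouse compared for these 3 genes, without passing the adjusted threshold.

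Il18 was spread over macrophages and conventional dendritic cells. It stood at 51.5 ± 26.7 CPM in KCs, 42.6 ± 15.5 in cDC1, 37.8 ± 22.5 in monocytes and MDMs and 33.8 ± 26.0 in cDC2, and neighbours among these 4 did not differ beyond their spread (exact paired permutation tests, adjusted p = 0.935 for each). Il18bp was highest in KCs, at 476 ± 112 CPM against 20.5 ± 5.63 in sinusoidal endothelial cells, the class next in order (8 of 8 mice, exact paired permutation test, adjusted p = 0.0859). Among the classes with enough cells for a test, Il18r1 was highest in NK cells and T cells. It stood at 104 ± 25.7 CPM in NK/ILC1, at 58.2 ± 20.1 in CD4 T cells, at 57.3 in Cxcr6+ T cells and at 42.4 in CD8 T cells, and it was higher in NK/ILC1 than in CD4 T cells in 8 of 8 mice (exact paired permutation test, adjusted p = 0.0859). CD4 T cells and Cxcr6+ T cells did not differ beyond their spread (adjusted p = 1). KCs (19.7 CPM) and sinusoidal endothelial cells (18.1 CPM) came next in order. Basophils, too few for a test, held 306 CPM without scaling.

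The other inflammasome genes were led by pDCs, by neutrophils or by monocytes and MDMs. Pycard was highest in pDCs (294 ± 36.9 CPM) and next in monocytes and MDMs (246 ± 29.6), a difference found in 8 of 8 mice (exact paired permutation test, adjusted p = 0.0287). Casp4, a caspase that senses cytosolic lipopolysaccharide, was highest in neutrophils (169 ± 39.0 CPM), above monocytes and MDMs (69.7 ± 13.1) in 8 of 8 mice (exact paired permutation test, adjusted p = 0.043). Casp1 led in monocytes and MDMs (83.5 CPM), followed by neutrophils (72.6), cDC2 (65.8) and KCs (60.7), and Gsdmd led in monocytes and MDMs (72.4 CPM). No neighbouring classes differed beyond their spread for Casp1 among these 4 classes or for Gsdmd among any.

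**Figure D1:**
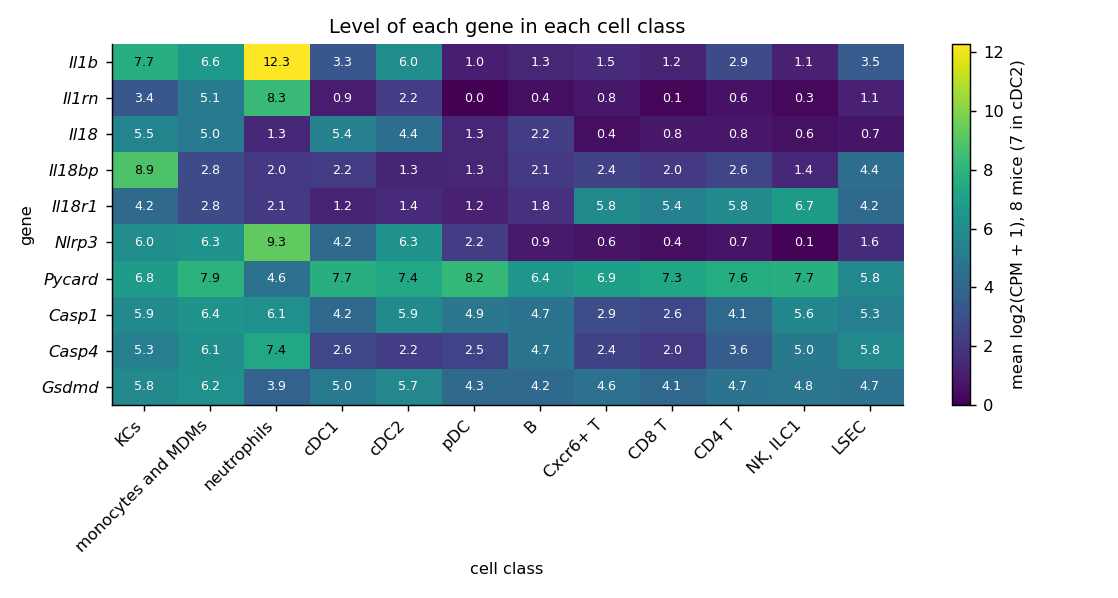
Heat map of the mean level of each of the 10 genes (vertical axis) in 12 cell classes (horizontal axis) over the mice with enough cells, coloured by mean log2(CPM + 1). Il1b, Il1rn and Nlrp3 are highest in neutrophils, Il18bp in KCs and Il18r1 in NK/ILC1, while Pycard is present in every class.

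BG against Control was then compared class by class with edgeR's quasi-likelihood test on UMIs summed per mouse. A gene was called at a Benjamini-Hochberg adjusted p under 0.05 over all genes tested in the class and a log2 fold change beyond 0.5. Over 13 classes, with T cells taken as a whole and also by subset and sinusoidal endothelial cells included, 55 tests of the 10 genes were possible, and the other 75 combinations had too few UMIs. Both calls were decreases: Il1b in KCs and Il18r1 in T cells as a whole.

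Il1b fell in KCs of BG mice. Its level was 1059, 383, 286 and 261 CPM in Control replicates 1 to 4, from 27, 27, 79 and 36 UMIs. In BG replicates 5 to 8 it was 79.1, 85.8, 109.6 and 122 CPM, from 17, 6, 25 and 21 UMIs. Every BG mouse lay below every Control mouse, and Control replicate 1, the highest, was the mouse with 13 KCs. The mean went from 497 ± 378 to 99.1 ± 20.0 CPM (SD, n = 4 mice each), a log2 fold change of -1.89 (SE 0.32, 95% interval -2.51 to -1.26, edgeR quasi-likelihood adjusted p = 0.000888). Without Control replicate 1 the log2 fold change was -1.56 (edgeR adjusted p = 0.000199). Of the 5 genes of the 10 that could be tested in KCs, Il1b was the 1 called, against 1.29% of all 2799 genes tested called in either direction and 0.429% called lower. Groups that did not overlap were found for 6.18% of all genes tested.

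The share of KCs with at least 1 Il1b UMI moved the same way. Shares were tested only for the 2 genes already called and come from the same UMIs, so they are no separate evidence. With every cell thinned to 1500 UMIs and shallower cells left out, it was 28.6%, 30.4%, 18.6% and 27.7% in Control replicates 1 to 4 and 10.6%, 8.33%, 7.04% and 12% in BG replicates 5 to 8. These shares rest on the 7, 23, 86 and 47 Control KCs and the 66, 24, 71 and 50 BG KCs that were deep enough. The groups did not overlap, with means of 26.3 ± 5.27% and 9.50 ± 2.23% (exact permutation test, two-sided, p = 0.0286, the smallest that 4 against 4 mice allow, 0.0571 adjusted over the 2 genes so tested). Unthinned, the shares were 30.1 ± 5.07% and 14.3 ± 3.71%. In B cells, which should lack Il1b, 0.117% of Control and 0.364% of BG cells held a UMI at the same depth of 1500, and the median depth before thinning was 1739 to 2877 UMIs in Control KCs, 1613 to 3129 in BG KCs, 1526 to 2249 in Control B cells and 1499.5 to 2067 in BG B cells.

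The groups stood apart under some filters on KCs and not under others. With 1 more marker required Il1b was at 223 to 1034 CPM (here without scaling) in Control and 63.5 to 94.3 in BG, and with another lineage at most 50% of the class score at 278 to 1098 and 56.2 to 128.1 CPM, and neither pair of groups overlapped. In KCs with no UMI of a T cell, NK cell or B cell marker, Il1b stood at 131 to 360 CPM in Control and 59.9 to 209 in BG, so the groups overlapped and too few UMIs remained for a test. Under a limit of 10% mitochondrial UMIs the ranges were 147 to 265 and 28.5 to 179, from 22 and 9 UMIs, again overlapping and not tested. Neutrophils were the class with most Il1b. In KCs, 1 of 12 neutrophil markers was at 0 in all mice, and the list summed to 0.00352% to 0.00933% of UMIs in Control and 0.00480% to 0.0242% in BG. S100a8 was at 0 UMIs in the KCs of all 4 Control mice and at 24, 1, 10 and 4 UMIs in BG. T cell markers summed to 0.0317% to 0.112% of KC UMIs in Control and 0.0724% to 0.138% in BG, and monocyte markers to 0.423% to 0.628% and 0.298% to 0.369%. The part of the neutrophil, monocyte and T cell markers in the Il1b difference was not tested.

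Il1b lies at chr2:129364570-129371139 on the minus strand (GRCm38), a protein-coding gene. Its promoter is shown because Il1b was the gene called in macrophages. The RefSeq window of the same build holds the 250 bases before the transcription start, chr2:129371140-129371389, read 5′ to 3′ on the minus strand, with the TATA box motif TATAAA in capitals, 31 bases before the start:

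Il1b promoter: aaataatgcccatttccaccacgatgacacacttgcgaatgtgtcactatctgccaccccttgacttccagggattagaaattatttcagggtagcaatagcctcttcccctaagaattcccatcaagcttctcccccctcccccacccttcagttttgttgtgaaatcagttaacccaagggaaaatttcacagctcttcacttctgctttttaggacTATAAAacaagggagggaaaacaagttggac

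TATAAA occurs on either strand in 12.4% of 32841 RefSeq promoter windows of this length. The other motifs searched on both strands, the interferon-stimulated response element (in 2.98% of windows), TTCNNNGAA (GAS), GGGNNTTCC (NF-kB), TGANTCA (AP-1), TTGCNNAA (C/EBP) and GAGGAA (PU.1), had no match in this window.

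In monocytes and MDMs and in neutrophils Il1b differed by less than the spread between mice. In monocytes and MDMs it was 137, 76.0, 166 and 90.2 CPM in Control replicates 1 to 4 and 52.0, 56.0, 98.4 and 146 CPM in BG replicates 5 to 8, which overlapped (log2 fold change -0.32, SE 0.28, edgeR adjusted p = 0.774). In neutrophils it was 3778, 5739, 5942 and 5962 CPM in Control and 5136, 4556, 5001 and 4121 CPM in BG, again overlapping (log2 fold change -0.18, SE 0.23, edgeR adjusted p = 0.991). The difference between the BG responses of monocytes and MDMs and of KCs was 1.65 on the log2 scale (SE 0.38, 95% interval 0.91 to 2.38), which did not pass the threshold over all genes (edgeR interaction with mouse as a block, adjusted p = 0.0767, with 0.111% of 4502 genes called). Without Control replicate 3 this difference was 2.05 (edgeR adjusted p = 0.00799), and with 1 more marker required it was 1.84 (adjusted p = 0.0466), both past the threshold. So whether the responses of KCs and of monocytes and MDMs were found to differ depended on these choices. The response of neutrophils differed from that of monocytes and MDMs by 0.26 (SE 0.39, edgeR interaction adjusted p = 0.970, 0.0704% of 2841 genes called), and that of cDC2 from that of KCs by 0.30 (SE 0.92, adjusted p = 0.977, 0% of 1503 genes called). In cDC1, 34 Il1b UMIs in Control and 3 in BG gave 101, 24.3, 23.8 and 16.8 CPM against 0, 5.83, 12.6 and 0 CPM. These groups did not overlap, as for 3.39% of genes tested in cDC1, but Il1b was below the count filter there and was not tested. In cDC2, 26 Il1b UMIs in 3 Control mice and 13 in 4 BG mice gave 217 ± 321 and 70.9 ± 59.3 CPM. Those groups overlapped, and BG against Control was not tested there.

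**Figure D2:**
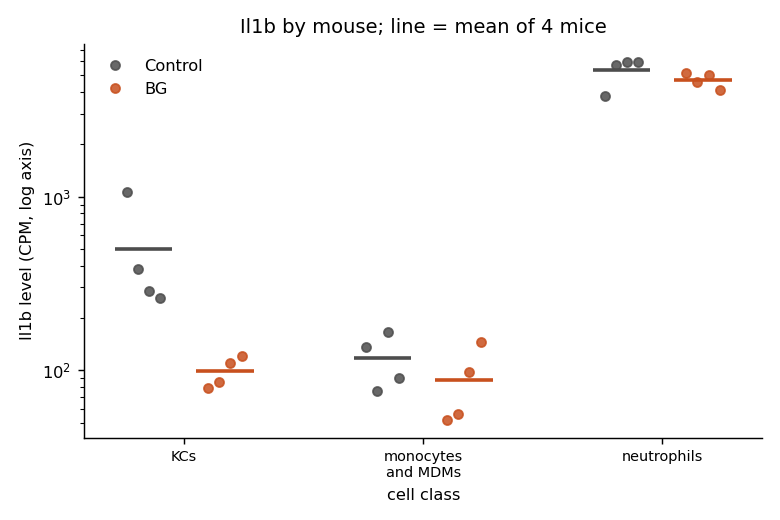
Il1b level in CPM (log axis) of each mouse in KCs, monocytes and MDMs, and neutrophils, Control beside BG, 1 point per mouse and a line at the mean of 4 mice. In KCs the BG mice (79.1 to 122 CPM) lie below all Control mice (261 to 1059 CPM), and in the other classes the groups overlap.

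Il1rn, the antagonist, was low in KCs of both groups. It gave 5 UMIs in Control KCs and 17 in BG KCs (15.2 ± 17.1 and 20.7 ± 14.2 CPM, overlapping, too few to test). Monocytes and MDMs had 37.7 ± 6.07 CPM in Control and 38.4 ± 29.2 in BG (log2 fold change 0.12, SE 0.38, edgeR adjusted p = 0.968). Neutrophils held 418, 499, 166 and 142 CPM of Il1rn in Control and 553, 195, 313 and 687 CPM in BG, an overlapping spread that was not tested. The ratio of Il1rn to Il1b UMIs within each library, which does not depend on scaling, had a mean log2 of -4.71 ± 0.86 in Control KCs and -2.28 ± 0.96 in BG KCs. The groups did not overlap (difference 2.43, exact two-sided permutation test p = 0.0286, 0.114 adjusted over 4 ratios), although the Il1rn side rests on 22 UMIs. The Il1b side holds the same UMIs that were called lower, so this ratio is no separate evidence of a shift in Il1rn. Il1rn reached 0 in both groups, where the ratio rests on its pseudocount. The same ratio differed by 0.14 in monocytes and MDMs (exact permutation test p = 0.743).

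Il18 was higher on average in macrophages of BG mice but did not pass the test. In monocytes and MDMs it was 38.7, 23.6, 10.1 and 12.9 CPM in Control replicates 1 to 4 and 47.7, 66.7, 69.3 and 33.1 CPM in BG replicates 5 to 8. The groups overlapped only between Control replicate 1 and BG replicate 8. The mean was 21.3 ± 12.99 CPM in Control and 54.2 ± 17.1 in BG (log2 fold change 1.21, SE 0.35, 95% interval 0.53 to 1.89, edgeR adjusted p = 0.0891). Without Control replicate 1 it was 1.72 (edgeR adjusted p = 0.0243) and without BG replicate 8 it was 1.40 (adjusted p = 0.0486), both past the threshold. Ly6c2, 1 of the 13 markers of this class, was at 571 to 857 CPM (here without scaling) in Control and 2160 to 3471 in BG. All 13 markers together made up 1.63% to 2.61% of the class UMIs in Control and 1.68% to 2.03% in BG. The part of such a shift within the class in the Il18 difference was not tested. In KCs, Il18 was 36.0 ± 18.1 CPM in Control and 67.1 ± 26.3 in BG from 19 and 49 UMIs, and in cDC1 40.9 ± 11.2 and 44.3 ± 20.7. Both overlapped and were not tested. None of the 8 genes that could be tested in monocytes and MDMs was called (1 at an unadjusted p under 0.05, which was Il18, and 0 called with DESeq2), against 1.76% of 4540 genes. An unadjusted p under 0.05 was found for 517 of these 4540 genes.

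Il18bp, the inhibitor, overlapped between the groups in KCs. It was 549, 368, 521 and 406 CPM in Control and 517, 357, 684 and 406 CPM in BG, with BG replicate 7 above and BG replicate 6 below every Control mouse (log2 fold change 0.15, SE 0.20, 95% interval -0.24 to 0.55, edgeR adjusted p = 0.822). The log2 ratio of Il18bp to Il18 UMIs in KCs was 3.52 in Control and 2.85 in BG (exact permutation test p = 0.143, 0.190 adjusted over 4 ratios), and in monocytes and MDMs -0.54 and -3.53 (p = 0.0857, 0.171 adjusted). In sinusoidal endothelial cells Il18bp was 16.4 ± 3.55 CPM in Control and 24.5 ± 4.13 in BG. These groups did not overlap (as for 4.44% of genes there), and the log2 fold change of 0.60 (SE 0.18) had an edgeR adjusted p of 0.282. In this class 0 of 7 of the genes described here were called, against 0.954% of all genes. An unadjusted p under 0.05 was found for 2 of the 7 (Il18bp and Il18r1), against 781 of 10796 genes tested. NK/ILC1 held 2 Il18bp UMIs in Control and 13 in BG, and B cells 2.60 ± 1.03 and 4.03 ± 0.601 CPM, both without overlap (as for 7.5% and 6.01% of genes tested) and below the count filter.

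**Figure D3:**
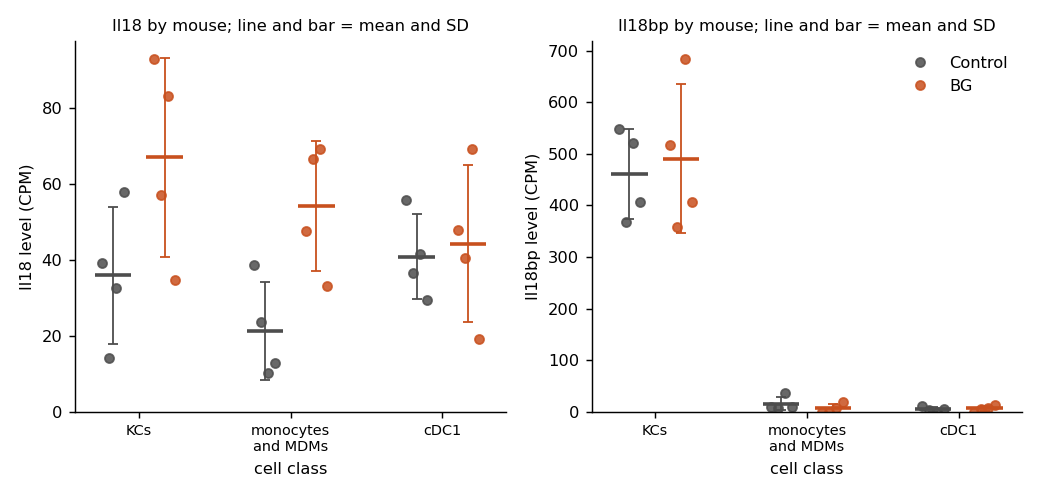
Il18 and its inhibitor Il18bp in CPM of each mouse in KCs, monocytes and MDMs, and cDC1, Control beside BG, 1 point per mouse with the mean and SD of 4 mice. Il18 in monocytes and MDMs runs from 10.1 to 38.7 CPM in Control and 33.1 to 69.3 CPM in BG, while Il18bp in KCs spans 357 to 684 CPM over both groups.

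Il18r1, the ligand-binding chain of the IL-18 receptor, was lower in T cells of BG mice. Over all T cells it was 63.7, 58.8, 71.7 and 66.7 CPM in Control replicates 1 to 4 and 39.6, 45.6, 37.6 and 60.6 CPM in BG replicates 5 to 8. BG replicate 8 lay within the Control range and the other BG mice below it. The mean was 65.2 ± 5.42 CPM in Control and 45.9 ± 10.4 in BG, from 2088 and 1398 UMIs (log2 fold change -0.50, SE 0.13, 95% interval -0.75 to -0.25, edgeR adjusted p = 0.0469). This was the 1 call among 7 genes tested, against 2.53% of 11262 genes called in either direction and 0.284% called lower. It sat at both thresholds and was lost in 6 of the 8 fits that left out 1 mouse, namely without Control replicate 1 (edgeR adjusted p = 0.0911), Control replicate 3 (0.143), Control replicate 4 (0.114), BG replicate 5 (0.129), BG replicate 6 (0.069) or BG replicate 7 (0.125). Under a limit of 10% mitochondrial UMIs the log2 fold change was -0.41 (edgeR adjusted p = 0.335).

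The share of T cells with an Il18r1 UMI, thinned to 1500 UMIs, was 8.29 ± 0.913% in Control and 6.17 ± 1.48% in BG (exact permutation test, two-sided, p = 0.0857), and in B cells, which hold little of it, 0.287% and 0.249%. Median depth of T cells was 2471.5 to 3295.5 UMIs in Control and 2552.5 to 3834 in BG, and unthinned shares were 14.8 ± 2.03% and 12.1 ± 2.89%. From 2291 to 2756 T cells per Control mouse and 1800 to 2446 per BG mouse were deep enough for the thinned shares.

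The T cell subsets had like point estimates with wider errors. In Cxcr6+ T cells, the tissue-resident and NKT-rich share of liver T cells, Il18r1 was 63.7, 64.8, 71.9 and 67.5 CPM in Control and 38.1, 46.0, 34.9 and 71.6 CPM in BG (log2 fold change -0.47, SE 0.17, edgeR adjusted p = 0.144). Without BG replicate 8, the highest of its group, it was -0.75 (edgeR adjusted p = 0.00111). In CD4 T cells it was 72.2 ± 19.8 CPM in Control and 44.2 ± 5.18 in BG (log2 fold change -0.73, edgeR adjusted p = 0.102, and -0.88 with adjusted p = 0.0292 without Control replicate 2). In CD8 T cells it was 47.8 ± 5.10 and 37.0 ± 14.4 CPM (log2 fold change -0.43, edgeR adjusted p = 0.533). No member was called in a subset, against 2.85%, 1.47% and 0.819% of all genes tested in Cxcr6+, CD4 and CD8 T cells. At an unadjusted p under 0.05 there was 1 in Cxcr6+ T cells, 1 in CD4 T cells (Il18r1 in both) and 0 in CD8 T cells, and DESeq2 called 0 in each. Over all genes tested, 1921 of 10387, 526 of 5223 and 614 of 6102 had such a p in these subsets, in that order. In NK/ILC1, with the highest level, Il18r1 was 112 ± 33.4 CPM in Control and 96.1 ± 16.1 in BG (log2 fold change -0.24, edgeR adjusted p = 0.580). The responses of NK/ILC1 and Cxcr6+ T cells differed by 0.24 (SE 0.16, 95% interval -0.07 to 0.56, edgeR interaction adjusted p = 0.874, with 0.0941% of 9562 genes called).

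Outside the lymphocytes, Il18r1 in sinusoidal endothelial cells was 14.6, 23.3, 24.0 and 23.9 CPM in Control replicates 1 to 4 and 16.8, 9.69, 9.96 and 22.8 CPM in BG replicates 5 to 8, which overlapped. The log2 fold change of -0.67 (SE 0.25, edgeR adjusted p = 0.503) was not called. Thinned to 1500 UMIs, 1.88% to 3.33% of these cells held an Il18r1 UMI in Control and 0.531% to 1.65% in BG, without overlap and without a test. How many of all genes lack overlap in thinned shares was not computed. Unthinned, the shares were 3.95% to 5.83% in Control and 2.46% to 5.25% in BG, which overlapped. Among the members tested in T cells, Il1b (3.05 ± 1.25 CPM in Control and 1.88 ± 0.301 in BG, log2 fold change -0.67, edgeR adjusted p = 0.269) and Il18bp (3.43 ± 0.449 and 4.72 ± 0.857 CPM, log2 fold change 0.48, edgeR adjusted p = 0.220) had an unadjusted p under 0.05 and were not called. Of all genes tested in T cells, 2079 of 11262 had such a p.

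**Figure D4:**
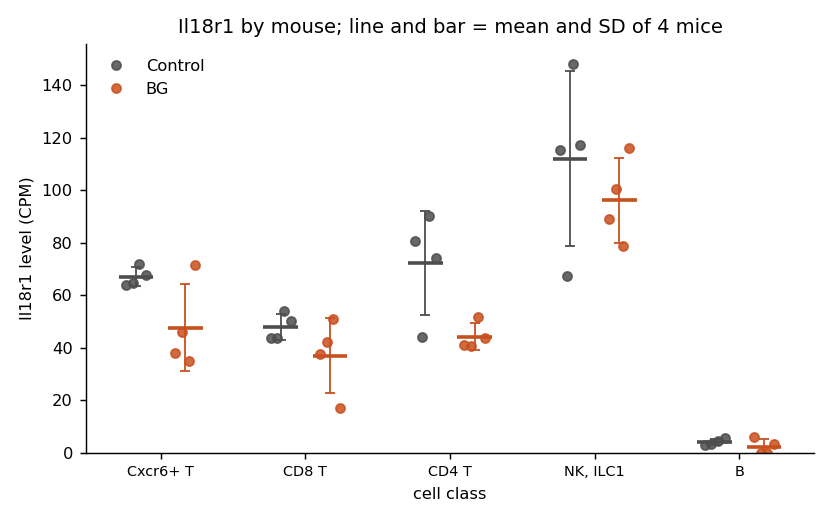
Il18r1 level in CPM of each mouse in Cxcr6+ T cells, CD8 T cells, CD4 T cells, NK/ILC1 and B cells, Control beside BG, 1 point per mouse with the mean and SD of 4 mice. Levels are highest in NK/ILC1 (112 and 96.1 CPM on average), and in Cxcr6+ T cells 3 BG mice lie below all Control mice and BG replicate 8 beside them.

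The inflammasome genes themselves were not called in any class tested. Nlrp3 in neutrophils was 633 ± 110 CPM in Control and 658 ± 275 in BG (log2 fold change 0.03, SE 0.33, edgeR adjusted p = 0.994). In KCs it was 314, 70.8, 54.3 and 87.0 CPM in Control and 46.5, 14.3, 57.0 and 69.5 CPM in BG, with Control replicate 1 far above every other mouse (log2 fold change -0.66, SE 0.42, edgeR adjusted p = 0.574). Monocytes and MDMs had 87.8 ± 13.7 and 69.98 ± 6.87 CPM (log2 fold change -0.35, SE 0.20, edgeR adjusted p = 0.569). In cDC2, 14 and 12 Nlrp3 UMIs gave 106 ± 4.598 CPM in 3 Control mice and 65.2 ± 17.7 in 4 BG mice, without overlap (as for 4.52% of genes) and too few to test.

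Pycard, the adaptor, had the most UMIs of the inflammasome genes in monocytes and MDMs, KCs, T cells and NK/ILC1. Its SE was the smallest of those tested there except in T cells, where that of Gsdmd was smaller (0.0973 against 0.1036). In monocytes and MDMs Pycard was 243 ± 19.7 CPM in Control and 250 ± 40.3 in BG (log2 fold change 0.04, SE 0.15, 95% interval -0.25 to 0.32, edgeR adjusted p = 0.971). In KCs the log2 fold change was 0.02 (95% interval -0.55 to 0.59). In T cells it was 124 ± 12.1 and 141 ± 19.5 CPM (log2 fold change 0.18, edgeR adjusted p = 0.370). In NK/ILC1 it was 195 ± 15.2 and 236 ± 36.1 CPM (log2 fold change 0.28, SE 0.12, edgeR adjusted p = 0.298), the 1 gene of 5 tested there with an unadjusted p under 0.05. DESeq2 called 0 there. Of all genes tested in NK/ILC1, 845 of 6377 had an unadjusted p under 0.05 and 1.8% were called.

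Casp1 in monocytes and MDMs was 88.7 ± 6.07 CPM in Control and 78.4 ± 20.7 in BG (log2 fold change -0.16, edgeR adjusted p = 0.852), and in KCs 53.9 ± 15.8 and 67.4 ± 20.2 CPM (log2 fold change 0.26, edgeR adjusted p = 0.826). Casp4 in monocytes and MDMs was 68.9 ± 12.3 and 70.4 ± 15.8 CPM (log2 fold change 0.02, SE 0.22). Gsdmd, the pore-forming substrate, was 67.7 ± 4.78 and 77.0 ± 23.7 CPM in the same cells (log2 fold change 0.21, SE 0.23). None of these passed the test, and the 95% intervals of these 3 genes in monocytes and MDMs reached from -0.57 to 0.24, -0.42 to 0.46 and -0.24 to 0.66.

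Dendritic cells and neutrophils gave no call. Pycard was 299 ± 42.8 CPM in Control and 289.7 ± 36.1 in BG pDCs (log2 fold change -0.06, edgeR adjusted p = 0.960). Of 3 genes tested in pDCs, 1 in cDC1, 1 in cDC2, 2 in neutrophils and 4 in B cells, 0 were called in each, 0 had an unadjusted p under 0.05 and DESeq2 called 0. The shares of all genes called were 0.75%, 0.169%, 0.129%, 2.09% and 1.28% in those classes.

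**Figure D5:**
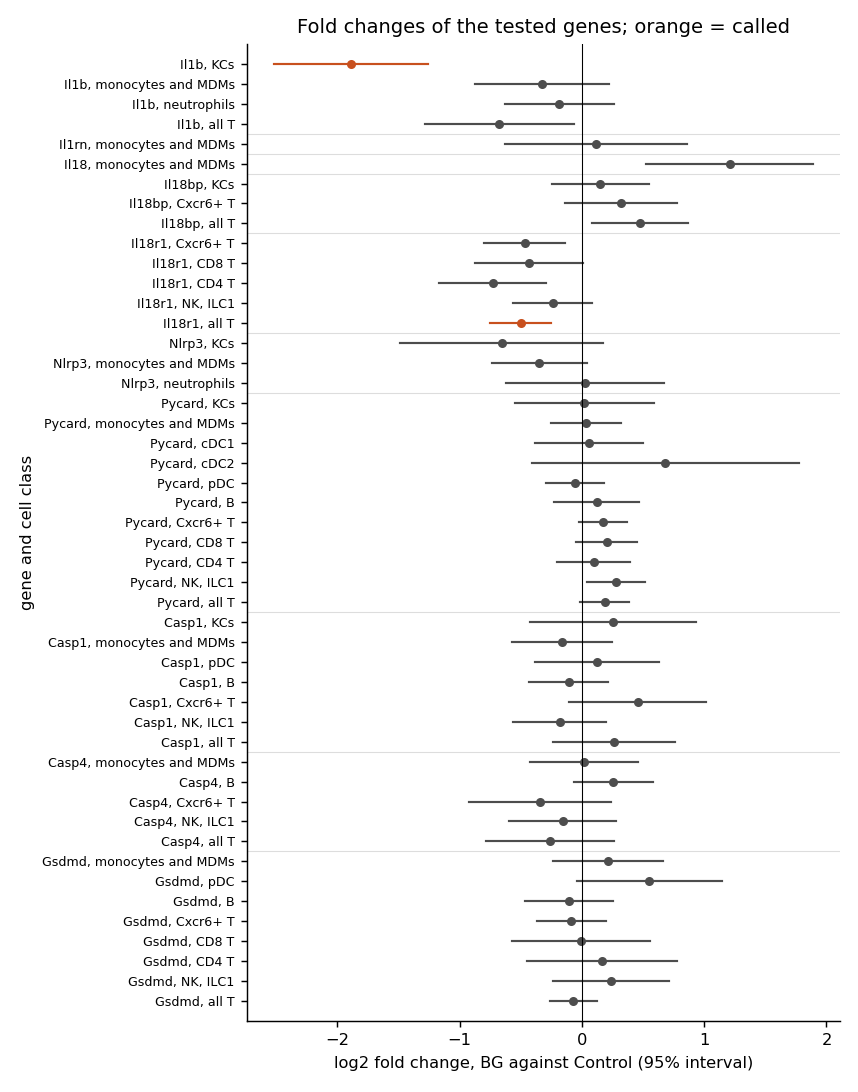
Log2 fold change of BG over Control (horizontal axis) with its 95% interval for each of the 10 genes in each class where it could be tested (vertical axis), from edgeR's quasi-likelihood test. The called genes, in orange, are Il1b in KCs at -1.89 and Il18r1 in all T cells at -0.50, and the other intervals belong to genes that were not called.

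The rest of the pathway was looked at through a list of 43 genes that comprised the other IL-1 family ligands, the receptors and their accessory chains, the MyD88-IRAK signaling genes, other inflammasome sensors and regulators, and further effectors. None was called with edgeR in any of the classes: 0 of 4 tested in KCs, 0 of 14 in monocytes and MDMs, 0 of 22 in T cells, 0 of 14 in NK/ILC1 and 0 of 19 in B cells. At an unadjusted p under 0.05 there were 0, 1, 1, 2 and 2 genes. Of all genes tested in those classes, 364 of 2799, 517 of 4540, 2079 of 11262, 845 of 6377 and 777 of 8541 had such a p, in the same order. Il18rap, the second chain of the IL-18 receptor and named here after its values were seen because it pairs with Il18r1, was 54.6 CPM in Control and 48.4 in BG T cells (log2 fold change -0.16, edgeR adjusted p = 0.541). Of 15 genes known as targets of IL-1 signaling, 0 of 7 tested in KCs and 0 of 12 in monocytes and MDMs were called with edgeR (1 and 2 at an unadjusted p under 0.05). The called members of this list were the chemokine gene Ccl4, which fell in cDC1 (log2 fold change -2.19, edgeR adjusted p = 0.0465), and the cytokine gene Tnf, which rose in pDCs (log2 fold change 1.15, adjusted p = 0.0347).

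Other gene groups did move in the same macrophages. Of 11 interferon-induced genes, 4 of 10 tested rose in KCs, among them Ifit1 (log2 fold change 1.63), Oasl2 (1.62) and Isg15 (1.22), with a list median of 0.88 against -0.01 over all genes tested. Among them 7 of 11 rose in monocytes and MDMs, led by Ifit3 at 2.20, Irf7 at 1.72 and Usp18 at 1.58. Of 14 immediate early and heat shock genes, which respond to tissue dissociation, 0 rose and 3 fell in KCs, Hspa1b by 1.00, Hspa1a by 0.87 and Btg2 by 0.75 on the log2 scale, and the list median was -0.50. Among these genes 1 rose in monocytes and MDMs, Ier3 by 0.99, and 0 fell. Of all genes tested, 1.29% in KCs and 1.76% in monocytes and MDMs were called in either direction. Outside the macrophages, 3 immediate early and heat shock genes fell in each of B cells, T cells, Cxcr6+ T cells and NK/ILC1. In CD8 T cells 2 fell and in CD4 T cells 1. All genes called there were 1.28%, 2.53%, 2.85%, 1.8%, 0.819% and 1.47% in that order. In neutrophils, cDC1, cDC2, pDCs and sinusoidal endothelial cells 0 fell, and 1 rose in pDCs. The part of the immediate early genes in the Il1b decrease of KCs was not tested.

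The genes whose pattern over the 12 classes was most like that of a member were found by Pearson's correlation of mean log2(CPM + 1), as a description over 9085 genes and with 12 points that share libraries and depth. For Il1b they were Il1rn (r = 0.954), Pram1 (0.953) and Ccl6 (0.950). For Il18bp the first was Aspa (0.978), for Il18r1 Gm33104 (0.978) and Ms4a4b (0.976), for Nlrp3 Ccl6 (0.977) and for Pycard Jpt1 (0.946).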

How the data were processed

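Livers of 4 Control and 4 BG mice were profiled as 10x 3′ libraries. The authors deposited UMI counts per gene and barcode, made with Cell Ranger 6.1.2 (file header) against mm10 with introns included. The deposited counts were used as given. Cells with 200 to 2500 detected genes and at most 30% mitochondrial UMIs were kept (48465 of 127557 barcodes). A cell entered a class with at least 3 of its marker genes, the highest score of all classes, and a score of any other lineage of at most 75% of it, a limit set on marker counts after the files were read. This gave 41142 cells (84.9%). No doublet caller was run, and cells with markers of 2 lineages were left out. T cells were divided by Cxcr6, Cd8a or Cd8b1, and Cd4 UMIs, so the subsets are part of the T cells.

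UMIs were summed per mouse and class for mice with at least 10 cells, where at least 3 mice per group had them. edgeR 4.0.16 (R 4.3.3; TMM, filterByExpr, quasi-likelihood) was the main test, in place of DESeq2 in the study, and DESeq2 1.42.0 an alternative. In cDC2, Control replicate 1 had 8 cells and was left out. Responses of 2 classes were compared with mouse as a block. Shares, ratios (pseudocount 0.5 UMI) and level orders (pseudocount 1 CPM) used exact permutation tests in Python 3.11.15 with scipy 1.17.1. The scripts were tested on simulated data. Alternatives were relative log expression, no count filter, no upper gene limit, 10% mitochondrial UMIs, 1 more marker, no lymphocyte-marker UMI in myeloid cells, each mouse left out and, chosen after seeing the data, another lineage at most 50%.

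The members and lists were chosen with earlier results of these data known. All 10 members could be named in any class (values not printed belong to differences that were not called or not tested), other pathway genes only when called (Il18rap excepted), with up to 3 examples of the other lists, those of largest change, and up to 3 genes most alike in pattern among those of at least 20 CPM in a class. Each library is a separate mouse. Intervals of small classes are exact Poisson intervals and cover counting error only. Promoter windows are from RefSeq (GRCm38.p6, 9 of 10 members matched). Gene positions are from GENCODE vM21.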

Additional observations from a re-analysis of the deposited data

Results flagged for a closer look

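Of 123 groups of 4 mice with at least 20 UMIs of a member, 7 held a mouse whose gap to the nearest other mouse took more than 0.829 of the group's range. Chance gives about 1 in 20. Control replicate 1 was that mouse in 4 of them. Its Il1b level was 1059 CPM in KCs (the others 261 to 383), 101 CPM in cDC1 (16.8 to 24.3) and 3778 CPM in neutrophils (5739 to 5962), and its Nlrp3 level in KCs was 314 CPM (54.3 to 87.0). Its KC values rest on 13 cells. Control replicate 2 held 2.15 CPM of Il1rn in T cells (the others 0.439 to 0.498) and 3.86 CPM of Il1b in Cxcr6+ T cells (1.33 to 1.74). Control replicate 4 held 4.72 CPM of Il18bp in Cxcr6+ T cells (3.34 to 3.55).

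Basophils, which entered no comparison because too few mice had 10 of them, held 0 Il1b UMIs in the Control mice, which allows up to 22.4 CPM (here without scaling). In BG they held 11, which is 83.9 CPM (exact 95% Poisson interval 41.9 to 150.1, counting error only), from 2 of the 4 mice. The difference was not tested.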

How the results depend on the processing

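Over 103 results and 1227 alternative values, 1092 kept their direction and their side of the threshold, or a like count. Il1b in KCs was called in all 14 alternatives that gave it a value (log2 fold change -2.38 to -1.56, edgeR or DESeq2 adjusted p from 8.51e-08 to 0.0105). It gave none without lymphocyte-marker UMIs, where members called in KCs went from 1 to 0, nor at 10% mitochondrial UMIs, where KCs, neutrophils and cDC2 kept too few cells. cDC2 also gave no value with 1 more marker, without lymphocyte-marker UMIs or with another lineage at most 50%. No paired analysis was possible because Control and BG mice share no replicate numbers. UMIs per class limit the rest, and 72 of the 120 combinations of member and class refitted here, which leave out sinusoidal endothelial cells, held too few for a test. Except where noted, the cause was not tested.

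Of all genes, 36 were called in KCs, 80 in monocytes and MDMs and 285 in T cells. DESeq2 called 20 in KCs. With no filter on low counts, which tests more genes, the counts were 82, 132 and 453, and with no upper limit on detected genes, which keeps more cells, 59 in KCs and 452 in T cells. Without lymphocyte-marker UMIs they were 21 in KCs and 45 in monocytes and MDMs, and at 10% mitochondrial UMIs 19 in monocytes and MDMs and 144 in T cells. Leaving out 1 mouse gave 15 to 65 in KCs (15 without BG replicate 7, 65 without Control replicate 1).

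Members called in T cells went from 1 to 0 with 1 more marker, at 10% mitochondrial UMIs and with another lineage at most 50%, and ranged from 0 to 1 when 1 mouse was left out. In monocytes and MDMs the count was 1 (Il18) with no filter or with another lineage at most 50%, in CD4 T cells 1 (Il18r1) with no filter or no upper gene limit, and in cDC1 1 (Il1b) with no filter. Leaving out 1 mouse gave 0 to 1 in each of monocytes and MDMs, Cxcr6+ T cells and CD4 T cells. The log2 ratio of Il1rn to Il1b in KCs differed by 2.08 to 2.91 and the share of KCs with Il1b by -19.4 to -15.5 percentage points when 1 mouse was left out, where an exact test of 3 against 4 mice cannot go below p = 0.0571. In Control mice alone, where an exact test of 4 pairs cannot go below p = 0.125, the leading class of Pycard exceeded the next by 0.29 and that of Casp4 by 1.06 (log2), and KCs were -0.30 from cDC1 for Il18.

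The values that changed sign belonged to differences that were not called. With DESeq2, Pycard was at -0.014 in KCs. With no filter, Nlrp3 was at -0.042 in neutrophils, Pycard at -0.0096 in cDC1, and Pycard at -0.020 in the response of monocytes and MDMs minus KCs. With no upper gene limit, Pycard was at -0.064 in monocytes and MDMs, -0.11 in cDC1 and -0.15 in that response, Nlrp3 at -0.00418 in neutrophils, Il1b at 0.44 in T cells, Gsdmd at 0.00191 in T cells, 0.031 in Cxcr6+ and 0.020 in CD8 T cells, and Casp4 at -0.19 in the response of NK/ILC1 minus Cxcr6+ T cells. At 10% mitochondrial UMIs, Pycard was at -0.19 in monocytes and MDMs, -0.034 in cDC1 and -0.19 in CD4 T cells, and Casp1 at -0.49 in T cells. With 1 more marker, Pycard was at -0.029 in KCs and -0.020 in B cells and Casp4 at -0.000584 in monocytes and MDMs. Without lymphocyte-marker UMIs, Casp4 was at -0.25 in monocytes and MDMs and Il1b at 0.052 in neutrophils. With another lineage at most 50%, Pycard was at -0.17 in KCs.

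When 1 mouse was left out, Pycard ranged from -0.26 to 0.28 in KCs, -0.030 to 0.13 in monocytes and MDMs, -0.13 to 0.21 in cDC1, -0.13 to 0.035 in pDCs, -0.12 to 0.29 in B cells and -0.0020 to 0.25 in CD4 T cells. Casp1 ranged from -0.073 to 0.35 in pDCs and -0.20 to 0.030 in B cells, and Casp4 from -0.083 to 0.19 in monocytes and MDMs. Gsdmd ranged from -0.028 to 0.38 in monocytes and MDMs, -0.26 to 0.046 in B cells and -0.17 to 0.13 in CD8 T cells. Nlrp3 ranged from -0.28 to 0.24 in neutrophils, Il18bp from -0.067 to 0.29 in KCs and Il1rn from -0.44 to 0.35 in monocytes and MDMs, where the Il1rn to Il1b ratio differed by -0.19 to 0.44. Among the response differences, monocytes and MDMs minus KCs ranged from -0.23 to 0.27 for Pycard and -0.10 to 0.52 for Casp4, neutrophils minus monocytes and MDMs from -1.65 to 0.92 for Gsdmd and -0.041 to 1.03 for Il1rn, and cDC2 minus KCs from -0.37 to 2.82 for Il1b.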

Other observations

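Among the small classes, Il18r1 had 81 UMIs in the 97 basophils, which is 306 CPM (exact 95% Poisson interval 243 to 380), and was found in all 8 mice. Nlrp3 in the same cells had 53 UMIs (200 CPM, 150 to 262). The 39 γδ T cells with type 17 genes held 51 Il18r1 UMIs (340 CPM, 253 to 446) and 32 Pycard UMIs (213 CPM, 146 to 301). These values are pooled over the mice of both groups, are not scaled like the CPM of the tested classes, and cover counting error only.

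In lymphocytes the interferon-induced list moved while the IL-1 family and inflammasome genes gave the single Il18r1 call: of 11 such genes, 9 of 11 rose in B cells, 7 of 11 in T cells and 8 of 11 in Cxcr6+ T cells, where 1.28%, 2.53% and 2.85% of all genes tested were called in either direction. Of those tested, 6 of 11 rose in CD8 T cells, 5 of 8 in CD4 T cells and 3 of 7 in NK/ILC1 (0.819%, 1.47% and 1.8% of all genes called). The interferon-induced list also moved outside the lymphocytes, with 10 of 11 higher in sinusoidal endothelial cells (0.954% of all genes called). The difference between the lists was not tested.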
